A study of Rattus norvegicus with 4 samples.

Results

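The miRNAs miR-146a-5p, miR-146b-5p and miR-155-5p were followed in small RNA libraries of rat vascular smooth muscle cells given angiotensin II (Ang II), the peptide hormone that raises vascular tone. A read was assigned to one of the 3 when its first 18 nt were identical to the mature sequence in RefSeq (build GRCr8). Where several miRNAs shared those 18 nt, the longest common start decided. They are 3 of 693 mature rat miRNA names in that table, of which 407 had reads here. Over the 4 libraries miR-146a-5p had 5322 reads in 101 distinct sequences (tags), miR-146b-5p 144892 reads in 844 tags and miR-155-5p 12241 reads in 338 tags. No tag of the 3 was tied between names.

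The cells came from the aorta of Sprague-Dawley rats and were grown in M199 medium with 10% fetal bovine serum. All 4 libraries, the control included, came from cells kept without serum for 48 h, so the control is itself a serum-depleted culture. One library was made from cells with no Ang II and one each from cells given 100 nM Ang II for 1 h, 3 h and 24 h. With 1 library per group there was no replicate check and no test of conditions. The labels give the control no time of its own, so the hormone and the hours spent in culture cannot be told apart. The libraries held 13119417 to 14534892 reads that name a sequence, and 68.4 to 74.4% of them began like a mature miRNA. Levels are in RPM, reads per 1000000 reads that name a sequence. The 95% intervals are exact and stand for counting error alone. In bulk RNA such as this, fewer cells of a type and less RNA per cell cannot be told apart.

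miRNAs are short RNAs that pair with target mRNAs mainly through the seed, bases 2 to 8 counted from the 5′ end, and lower the amount or the translation of those mRNAs. The miR-146a gene is transcribed in response to NF-kappaB. miR-146 acts on the mRNAs of IRAK1 and TRAF6, a kinase and an adaptor of Toll-like receptor and interleukin signalling, in a feedback loop. miR-155 is cut from the BIC transcript, is induced in activated immune cells, and acts among others on the mRNA of the cytokine signalling inhibitor SOCS1. In human cells the type 1 angiotensin receptor mRNA has been described as a miR-155 target, which makes it a miRNA of interest in vessels.

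The mature sequences (RefSeq, GRCr8) are shown because the reads of both miR-146 are told apart by their 3′ part alone. Capitals mark the seed.
miR-146a-5p: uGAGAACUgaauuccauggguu
miR-146b-5p: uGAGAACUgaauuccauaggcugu
miR-155-5p: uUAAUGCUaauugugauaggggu
miR-146a-5p and miR-146b-5p had the same seed, and no other mature rat name in the table had it. They shared their first 17 nt. Over the 22 positions of miR-146a-5p, counted from 1 at the 5′ end, 20 were identical and the substitutions from miR-146a-5p to miR-146b-5p were G18A and U21C. miR-146b-5p was 2 nt longer. The seed of miR-155-5p was found in no other mature rat name.

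The 3 genes lie on separate chromosomes. Mir146a lies on the minus strand, with its 5p arm at chr10:28350053-28350074, within the annotated lncRNA gene LOC134480673, which the table of gene starts also places on the minus strand. Mir146b is on the plus strand, with its 5p arm at chr1:255144874-255144897, within the bounds of the protein-coding gene C1h10orf95, whose strand was not used here. Mir155 is on the plus strand, with its 5p arm at chr11:37261117-37261139, within Mir155hg, the lncRNA gene that carries it, on the same strand. Whether these positions are exonic or intronic was not analysed here.

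miR-146b-5p was the most read of the 3 in every library, miR-155-5p was next and miR-146a-5p was last, with counting intervals that did not overlap between them. The control held 24.1 reads of miR-146b-5p for each read of miR-146a-5p (95% interval 22.9 to 25.5) and 10.2 for each read of miR-155-5p (9.80 to 10.6). At 24 h there were 29.5 (28 to 31.1) and 14.4 (13.9 to 14.9). These are ratios of reads, since equal numbers of molecules of different miRNAs need not give equal numbers of reads. By reads miR-146b-5p was the 26th miRNA in the control and the 19th at 24 h, miR-155-5p the 68th and the 60th, and miR-146a-5p the 89th and the 80th.

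miR-146b-5p was lowest in the control and highest at 24 h. It had 31537 reads in untreated cells (2191 RPM), 31561 after 1 h (2406 RPM), 36210 at 3 h (2520 RPM) and 45584 at 24 h (3136 RPM). Each later library stood above the one before, and no counting intervals overlapped. The order of 1 h and 3 h turned with median-of-ratios factors (log2 ratios of 0.237 and 0.236). The ratio to control was 1.10 at 1 h (1.08 to 1.12), 1.15 at 3 h (1.13 to 1.17) and 1.43 at 24 h (1.41 to 1.45). Without the control, the 24 h library stood at 1.30 times the 1 h library (1.29 to 1.32) and at 1.24 times the 3 h library (1.23 to 1.26).

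miR-146a-5p, with the same seed, was lowest at 3 h. It had 1306 reads in untreated cells (90.7 RPM), 1353 after 1 h (103 RPM), 1118 at 3 h (77.8 RPM) and 1545 at 24 h (106 RPM). The 1 h and 24 h libraries overlapped in their counting intervals and both lay above the control, and the 3 h library lay below it. The ratio to control was 1.14 at 1 h (1.05 to 1.23), 0.858 at 3 h (0.791 to 0.930) and 1.17 at 24 h (1.09 to 1.26).

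miR-155-5p was the flattest of the 3. It had 3101 reads in untreated cells (215 RPM), 3027 after 1 h (231 RPM), 2950 at 3 h (205 RPM) and 3163 at 24 h (218 RPM). The 1 h library was the highest and the 3 h library the lowest, and the counting interval of the control overlapped those of all 3 treated libraries. The ratio to control was 1.07 at 1 h (1.02 to 1.13), 0.953 at 3 h (0.906 to 1.00) and 1.01 at 24 h (0.961 to 1.06). At 24 h the side of 1 depended on the scaling, since the log2 ratio was 0.01 when scaled to sequence-naming reads and -0.06 when scaled to miRNA reads.

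**Figure D1:**
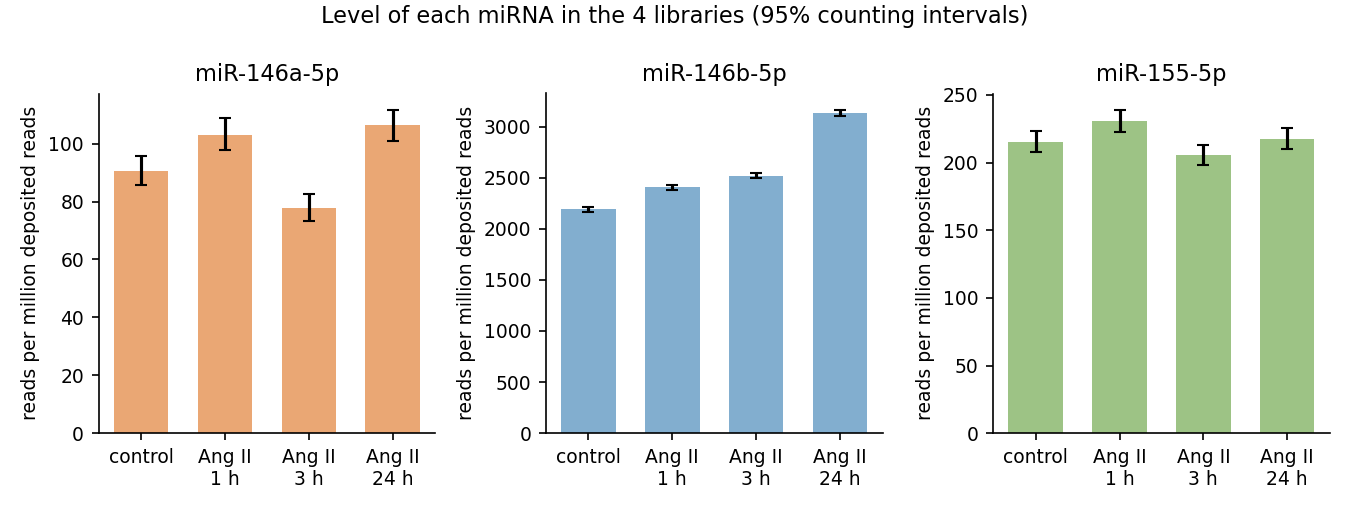
Level of miR-146a-5p, miR-146b-5p and miR-155-5p in RPM (y axis, from 0, a separate scale per panel) in the 4 libraries (x axis), with exact 95% Poisson intervals. miR-146b-5p is highest at 24 h (3136 RPM), miR-146a-5p is lowest at 3 h (77.8 RPM), and miR-155-5p stays between 205 and 231 RPM.

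The size rule called a miRNA higher or lower when (RPM + 1) differed by 1.5-fold or more with 100 or more reads in the higher library. None of the 3 passed it at 1 h, 3 h or 24 h. Among all miRNAs with 100 reads, 4.6% passed at 1 h (8 of 174), 7.95% at 3 h (14 of 176) and 21.3% at 24 h (38 of 178), in one direction or the other. None of the 3 passed between the treated libraries either, where 1.18% passed between 1 h and 3 h, 14.5% between 3 h and 24 h and 11.8% between 1 h and 24 h. Of the called miRNAs 4 were higher and 4 lower at 1 h (2.3% each), 7 and 7 at 3 h (3.98% each), and 9 and 29 at 24 h (5.06% and 16.3%). With TMM factors, a trimmed-mean scaling over the miRNA table, these became 7 and 3, 12 and 7, and 15 and 9, and with scaling to miRNA reads 3 and 9, 5 and 14, and 9 and 44.

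The scaling bears on miR-146b-5p at 24 h. Over the 178 miRNAs the log2 ratio had a median of -0.25 at 24 h, against -0.09 at 1 h and -0.05 at 3 h, and TMM factors moved the 24 h ratios up by 0.26. With the log2 ratio of 0.52 when scaled to sequence-naming reads, miR-146b-5p lay under the limit, and with 0.78 (TMM factors) or 0.77 (median-of-ratios factors) it lay past it. At 24 h 10 of the 178 miRNAs had a higher ratio than miR-146b-5p and 167 a lower one. For miR-146a-5p 27 were higher and 150 lower, and for miR-155-5p 46 were higher and 131 lower. At 3 h, 130 of 176 miRNAs had a higher ratio than miR-146a-5p, 32 than miR-146b-5p and 93 than miR-155-5p, so that both miR-146 stood in different parts of the distribution at that time. At 1 h 33, 40 and 45 of 174 were higher than miR-146a-5p, miR-146b-5p and miR-155-5p.

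**Figure D2:**
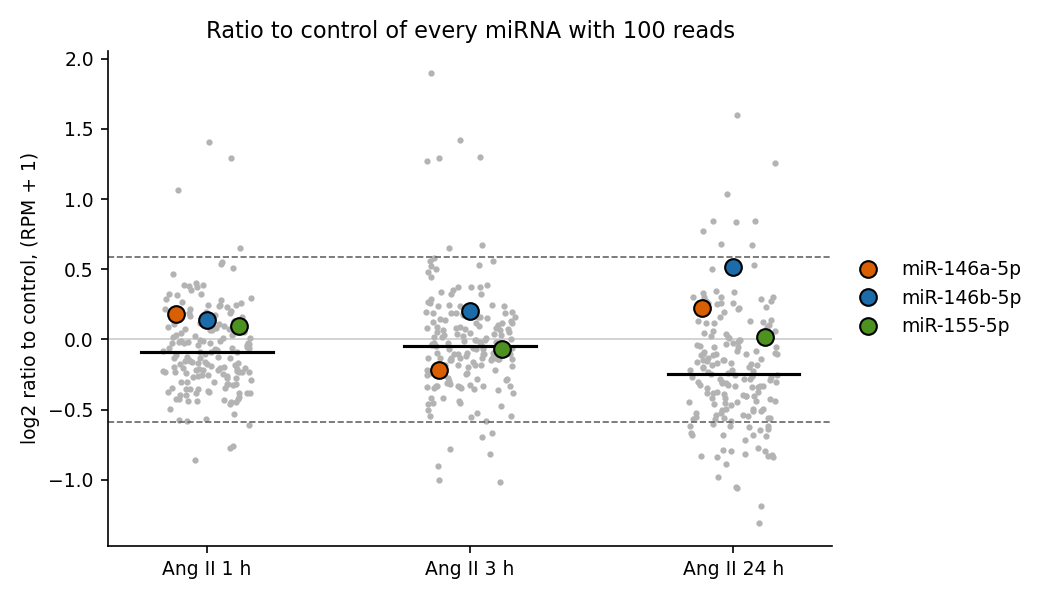
Log2 ratio to control, from RPM + 1 (y axis), of each miRNA with 100 reads (grey points) at 3 times of Ang II (x axis), with the median (black line), the 1.5-fold limits (dashed) and the 3 miRNAs marked. miR-146b-5p at 24 h (0.52) lies just under the upper limit, while the median lies at -0.25.

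The 3p arms, the strands of the same hairpins that are rarely kept, had few reads. miR-146a-3p had 0 reads in untreated cells, 6 after 1 h, 0 at 3 h and 1 at 24 h, and a count of 0 allows up to 3 reads by a one-sided 95% limit, which is 0.208 RPM untreated and 0.209 RPM at 3 h. miR-146b-3p had 8, 6, 9 and 10 reads untreated and after 1 h, 3 h and 24 h, and miR-155-3p had 21, 21, 30 and 20. All of these counts lay under the 100 reads that the size rule asks for, so no call was made for these arms.

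The 3 miRNAs differed in where their reads ended. The tags below are written as DNA, as sequenced. They are the most read forms, and capitals mark a last base that the RefSeq hairpin does not hold at that position.
miR-146b-5p, G-ended: tgagaactgaattccataggctgG
miR-146b-5p, reference: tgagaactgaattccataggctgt
miR-146b-5p, 23 nt: tgagaactgaattccataggctg
miR-146b-5p, 22 nt: tgagaactgaattccataggct
miR-146a-5p, reference: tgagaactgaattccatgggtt
miR-146a-5p, 23 nt: tgagaactgaattccatgggtta
miR-155-5p, 22 nt: ttaatgctaattgtgatagggg
miR-155-5p, reference: ttaatgctaattgtgataggggt
miR-155-5p, 24 nt: ttaatgctaattgtgataggggtt
The most read tag of miR-146b-5p was of the reference length but ended in G where the hairpin has U. It held 12281 reads in untreated cells, 13242 after 1 h, 15210 at 3 h and 18819 at 24 h, or 38.9%, 42%, 42% and 41.3% of the miRNA's reads. The reference tag held 5262, 5056, 6644 and 10202 reads, or 16.7%, 16%, 18.3% and 22.4%. Its share was highest at 24 h, where the interval (22.0 to 22.8%) did not overlap that of any other library. Reads ending in G outnumbered those of the reference tag 2.33-fold in the control (2.26 to 2.41), 2.62-fold at 1 h (2.54 to 2.71), 2.29-fold at 3 h (2.22 to 2.36) and 1.84-fold at 24 h (1.80 to 1.89).

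A last G of this kind was most frequent in miR-146b-5p. Over the 4 libraries 41.2% of miR-146b-5p reads ended in a single G that the hairpin lacks at that position. Out of 407 miRNAs with reads, 157 were compared, all with a hairpin that could be aligned, and among these it was the highest share. Little-read miRNAs such as miR-212-3p, and some abundant ones such as miR-125b-5p, were not among them. The next was miR-214-3p with 14.6%, and the median was 0.134%. The shares for miR-146a-5p and miR-155-5p were 0.714% and 0.123%. Similar shares were seen for other single last bases in other miRNAs, as in miR-664-3p (41.9% C) and miR-345-3p (40.1% U). Of these 157 miRNAs, 93 had the reference sequence as their most read tag, 6 had a tag ending in bases that the hairpin lacks, and miR-146b-5p alone among these 6 ended in a single G. The hairpin is that of the reference assembly, and whether the cells' own gene has the same base there was not tested.

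**Figure D3:**
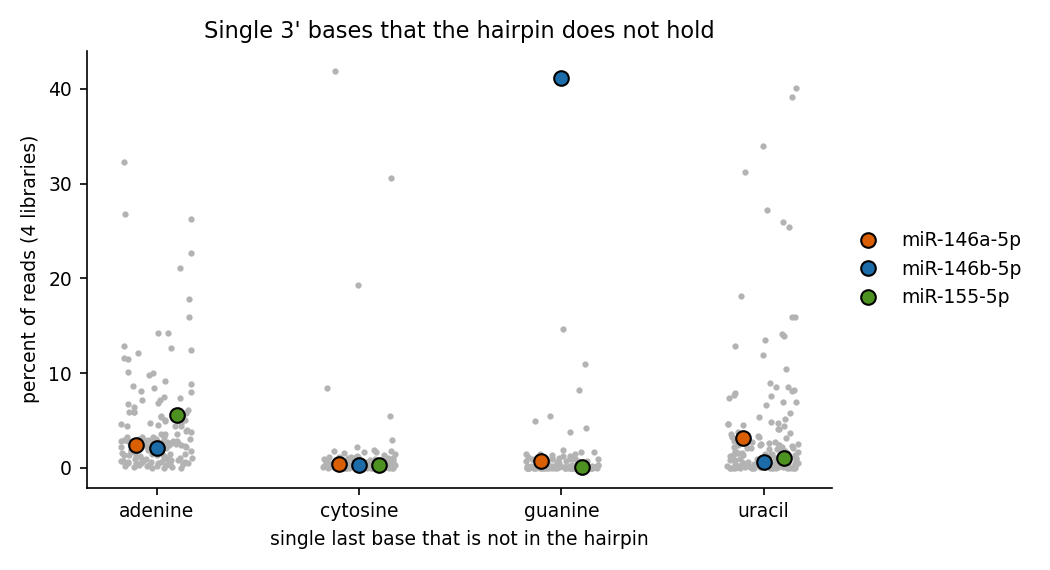
Percent of each miRNA's reads, summed over the 4 libraries (y axis), that end in a single base the hairpin does not hold at that position, by base (x axis), for 157 miRNAs (grey) and the 3 miRNAs marked. miR-146b-5p stands at 41.2% for guanine, against a median of 0.134%.

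miR-146a-5p had the reference tag as its most read form in every library. The reference tag held 694, 674, 540 and 832 reads untreated and after 1 h, 3 h and 24 h, or 53.1%, 49.8%, 48.3% and 53.9%. The 23-nt tag with the hairpin's next base, A, held 29%, 29.9%, 28.8% and 25.6%. miR-146a-5p was therefore read mainly with 22 nt and miR-146b-5p mainly with 24 nt (59.8% of them untreated, 66.1% at 24 h). The 3′ adapter of the protocol begins with A, so the last A of the 23-nt tag cannot be told apart from an adapter base.

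The most read tag of miR-155-5p was 1 nt shorter than the reference. It held 29.2%, 26.8%, 28.3% and 31.0% of the reads untreated and after 1 h, 3 h and 24 h, and the reference tag 18.7%, 20.4%, 19.1% and 21%. Tags longer than the reference with the hairpin's bases made up 17.8 to 19%. A single last A that the hairpin lacks made up 5.56% of the reads over the 4 libraries, against a median of 2.61% for the 157 miRNAs. As the 3′ adapter begins with A, such an A cannot be told apart from an adapter base either.

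**Figure D4:**
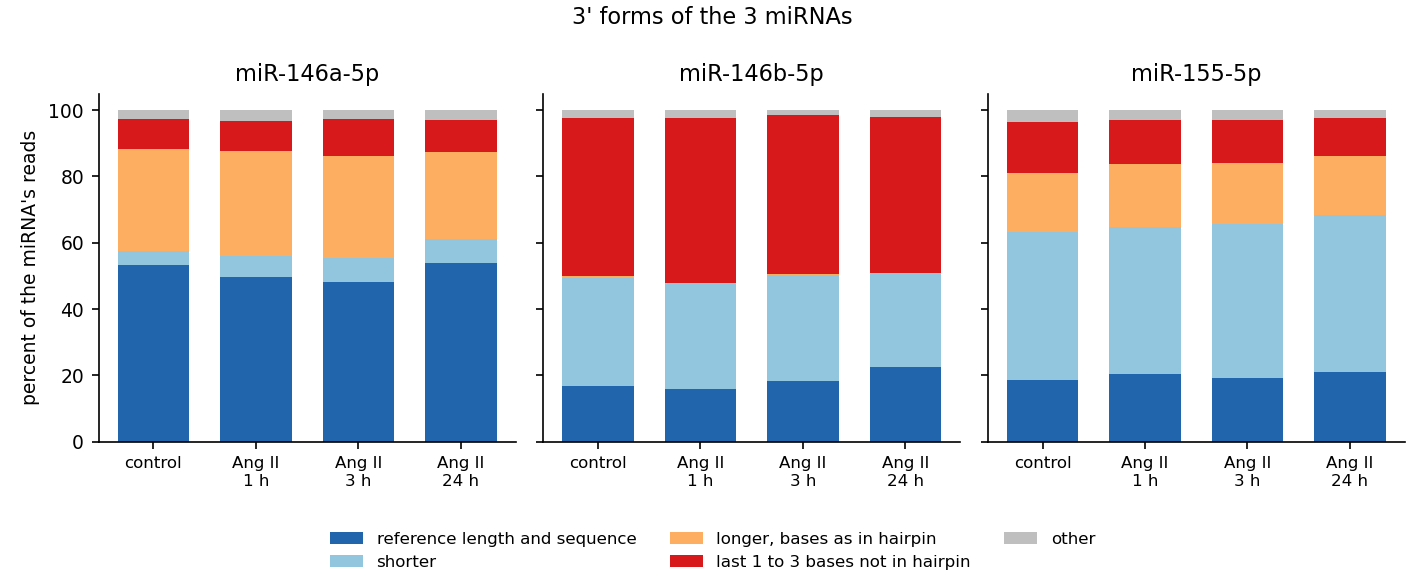
Percent of the reads (y axis) of each miRNA by 3′ form in the 4 libraries (x axis). The red block is largest in miR-146b-5p (47.1 to 49.8%), and the reference block of miR-146b-5p is tallest at 24 h (22.4% against 16.7% in the control).

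Within miR-146b-5p the ratio to control at 24 h was not the same for all forms. The reference tag stood at 1.92 times the control (1.86 to 1.99), the G-ended tag at 1.52 (1.48 to 1.55), the 23-nt tag at 1.37 (1.32 to 1.42), the 22-nt tag at 1.12 (1.07 to 1.18) and the 21-nt tag at 0.924 (0.842 to 1.01). The 20-nt tag, with fewer reads, stood at 1.40 (1.22 to 1.60), so the ratio did not fall steadily with length. By length, reads of 24 nt stood at 1.58 (1.55 to 1.61). All deposited reads of 24 nt, of any kind, stood at 0.925 times the control at 24 h. Counting the reference tag alone put miR-146b-5p past 1.5-fold at 24 h, with a log2 ratio of 0.94. For miR-146a-5p and miR-155-5p the reference tags stood at 1.19 (1.07 to 1.32) and 1.14 (1.02 to 1.27) at that time.

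Long tags of miR-155-5p were fewer at 24 h. Tags of 25 nt or longer had 350 reads in untreated cells, 357 after 1 h, 348 at 3 h and 231 at 24 h, and stood at 0.654 times the control at 24 h (0.551 to 0.774). Reads of that length over all miRNAs stood at 0.735 (0.727 to 0.744). For miR-146b-5p the same length class was lowest at 3 h, with 1519, 1763, 1127 and 1754 reads untreated and after 1 h, 3 h and 24 h and a ratio at 3 h of 0.743 (0.688 to 0.803), where that over all miRNAs was 1.11.

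Tags of 18 to 19 nt given to miR-146b-5p were more frequent at 3 h. The 18-nt tag of miR-146b-5p had 309 reads in untreated cells, 290 after 1 h, 713 at 3 h and 304 at 24 h, and stood at 2.31 times the control at 3 h (2.02 to 2.65). It had the highest ratio at 3 h of the 9 miRNAs with 100 reads of 18 nt. Its only base past the 17-nt start that both miR-146 share is a last A, which cannot be told apart from an adapter base. These reads are therefore not certain to be of miR-146b-5p, and whether they belong to that shared start was not tested. At 24 h the 18-nt tag stood at 0.974 times the control (0.829 to 1.15). Tags of 19 nt had 50 reads untreated, 62 after 1 h, 186 at 3 h and 59 at 24 h. They stood at 3.73 times the control at 3 h (2.71 to 5.20). Together the tags of 18 to 19 nt stood at 2.51 times the control at 3 h (2.22 to 2.84), against 1.13 for tags of that length over all miRNAs. They made up 2.48% of miR-146b-5p at 3 h and 0.796 to 1.14% in the other libraries. Those of miR-146a-5p had 0 reads untreated, 2 at 1 h, 2 at 3 h and 7 at 24 h, which is too few to compare the times.

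Just under the 18-nt rule lies the stretch that both miR-146 share, shown here because it belongs to neither alone.
miR-146 shared start, 17 nt: tgagaactgaattccat
This tag, which is not counted in the levels above and was singled out after its values were seen, had 189 reads in untreated cells, 164 after 1 h, 1123 at 3 h and 372 at 24 h. The 3 h library stood above the others, at 5.95 times the control (5.10 to 6.98), and the 24 h library at 1.95 times (1.63 to 2.33). Among 15 such 17-nt starts of miRNAs with 20 reads at 3 h or in the control, 26.7% were 1.5-fold or more higher at 3 h, and the miR-146 tag had the highest ratio. The 16-nt start of both miR-146 had 1 read in the control and 0 at 3 h. All deposited 17-nt reads stood at 1.05 times the control at 3 h. Giving the whole tag to miR-146b-5p moved its log2 ratio at 3 h from 0.20 to 0.24.

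**Figure D5:**
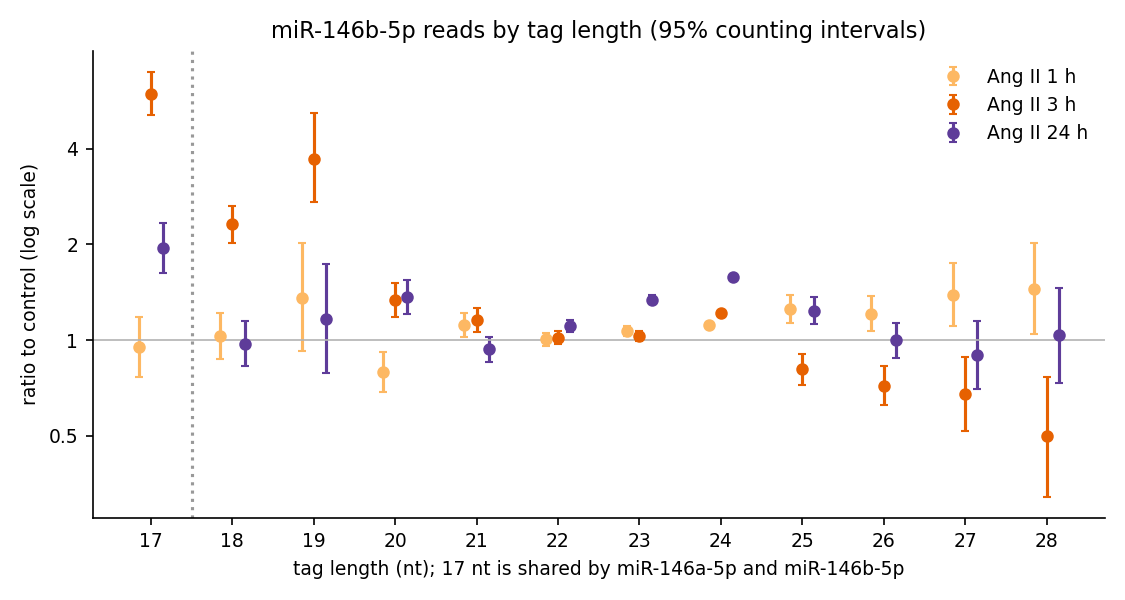
Ratio to control (y axis, log scale) of miR-146b-5p reads by tag length in nt (x axis) at 1 h, 3 h and 24 h, with exact 95% counting intervals; the 17-nt tag left of the dotted line is shared with miR-146a-5p. At 3 h the tags of 17 to 19 nt lie highest (5.95 at 17 nt), and at 24 h the 24-nt reads stand at 1.58. The 18-nt tag adds only an A to the shared tag, which cannot be told apart from an adapter base.

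Position 18 was checked because it separates both miR-146. Tags with G at position 18 but the end of miR-146b-5p numbered 15 in untreated cells, 8 after 1 h, 12 at 3 h and 22 at 24 h, or 0.591 to 1.42% of the reads given to miR-146a-5p. Without them miR-146a-5p had 1291, 1345, 1106 and 1523 reads. Tags of this mixed kind were thus a small share of miR-146a-5p in each library.

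Some reads began at another base, which shifts the seed. Tags starting 1 nt before miR-146b-5p had 443 reads in untreated cells, 334 after 1 h, 479 at 3 h and 545 at 24 h, or 1.05 to 1.39% of the reads with both starts. Tags starting 1 nt after it had 749, 672, 727 and 865 reads, or 1.86 to 2.32%. For miR-146a-5p the tags starting 1 nt before had 39, 33, 34 and 67 reads, and at 24 h they stood at 1.70 times the control (1.13 to 2.59). Another 5 to 14 reads per library started 1 nt before but were too short or too altered to tell both miR-146 apart. miR-155-5p had 0 reads starting 1 nt before, which by the same limit of 3 reads allows up to 0.229 RPM in the shallowest library, and 35 to 44 starting 1 nt after. The reference start held most reads of each of the 3 miRNAs in every library.

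Other miRNAs known from inflammation were taken from a list of 26 names that does not hold the 3 miRNAs, of which 24 had reads and 21 had 100 reads. None of the 21 passed 1.5-fold at 1 h, 2 were higher and 2 lower at 3 h, and 2 were higher and 1 lower at 24 h. Their median log2 ratios were -0.19, -0.13 and -0.20, against -0.09, -0.05 and -0.25 for all miRNAs tested. The list mixes miRNAs induced by inflammatory signals, acting on them, lowered by Toll-like receptor signals, and myeloid. At 3 h and 24 h the median was 0.46 and 0.50 for the 4 induced ones tested. It was -0.13 and -0.22 for the 15 acting ones and -0.33 and -0.24 for the 2 lowered ones. Among all miRNAs 3.98% were called higher at 3 h and 5.06% at 24 h, and 3.98% and 16.3% lower. At 24 h the share of the list called lower (1 of 21) lay below this background, and the share called higher (2 of 21) rests on 2 miRNAs. The list was chosen with earlier results of these data known, so these shares are not an independent result.

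The higher ones were miR-132-3p and miR-29b-3p. miR-132-3p, which is induced through CREB and dampens inflammatory signalling in macrophages, had 491 reads in untreated cells, 410 after 1 h, 1229 at 3 h and 1204 at 24 h, and its ratio was 2.51 at 3 h (2.26 to 2.79) and 2.43 at 24 h (2.18 to 2.70). miR-29b-3p, which acts on collagen mRNAs, had 1733, 2066, 2764 and 2810 reads and stood at 1.60 (1.5 to 1.7) and 1.61 (1.51 to 1.71), and its call at 3 h was lost with scaling to miRNA reads. Neither was higher at 1 h by the size rule.

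The lower ones were members of the miR-181 family, of which miR-181b acts on NF-kappaB import in endothelium, and miR-92a-3p of the miR-17-92 cluster. miR-181a-5p had 40371, 25418, 21508 and 37797 reads untreated and after 1 h, 3 h and 24 h and stood at 0.534 times the control at 3 h (0.525 to 0.543). miR-181b-5p had 18688, 11445, 10575 and 13692 and stood at 0.567 at 3 h (0.553 to 0.581). At 1 h both were called lower only when scaled to miRNA reads. miR-92a-3p stood at 0.621 at 24 h (0.584 to 0.661), a call lost with TMM or median-of-ratios factors. miR-21-5p, an abundant miRNA of vascular smooth muscle, stood at 1.03, 1.18 and 1.25 times the control after 1 h, 3 h and 24 h and was called higher at 24 h with TMM factors (log2 ratio 0.59) but not with the other scalings. miR-125b-5p, which falls in macrophages after Toll-like receptor activation, stood at 0.877, 0.872 and 0.903. At 24 h its log2 ratio of -0.15 became 0.12 with TMM factors.

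The miRNAs whose 3 log2 ratios lay closest to those of each of the 3 were sought among 179 with 100 reads, by the root mean square difference over the 3 times. Nearest to miR-146b-5p was miR-21-5p (difference 0.12), followed by miR-194-5p (0.13) and miR-384-5p (0.15). Nearest to miR-155-5p were miR-365-3p (0.04), the smooth muscle miRNA miR-145-5p (0.06) and miR-30c-5p (0.10). Nearest to miR-146a-5p were miR-210-3p (0.13), miR-145-5p (0.13) and miR-143-5p (0.14). miR-146a-5p and miR-146b-5p themselves differed by 0.30, more than miR-146a-5p and miR-155-5p did (0.16). All 3 ratios share the control library, so a likeness can come from that 1 library.

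The marker miRNAs of the labelled cell type were abundant. The 4 smooth muscle markers, miR-143 and miR-145 with both arms, summed to 251047 RPM untreated and to between 305774 and 312678 RPM under Ang II, and their part in the levels of the 3 miRNAs was not tested. Nearly all of this sum was miR-143-3p (248197 RPM untreated, 302819 to 309959 RPM under Ang II). The other 3 stood at 0.974 (miR-145-5p), 0.910 (miR-143-5p) and 0.825 (miR-145-3p) times the control at 3 h, and the median log2 ratio of the 4 was -0.09 at that time. Of 6 blood and immune markers that RefSeq lists, 3 had reads, and their summed reads were 10 in untreated cells, 10 after 1 h, 19 at 3 h and 13 at 24 h (0.695 to 1.32 RPM). miR-223-3p, miR-142-5p and miR-144-3p were at 0 in all libraries. RefSeq does not list miR-150-5p and miR-486, which could not be counted. The part of the blood and immune markers in the levels of the 3 miRNAs was not tested. The endothelial markers, both arms of miR-126a, summed to 105 to 125 RPM and were lowest at 24 h, and their part was not tested either. Of 6 epithelial markers RefSeq lists 3, which summed to 3.55 to 6.40 RPM. The names miR-200a-3p, miR-200b-3p and miR-429 are not among them and could not be counted. Striated muscle markers summed to 99.8 to 124 RPM, of which miR-1-3p alone made up 96.7 to 119 RPM, while miR-133b-3p and miR-208a-3p were at 0.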

How the data were processed

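Small RNA of 17 to 52 nt was sequenced on a Genome Analyzer IIx from libraries made with 0.5 µg of total RNA and 12 PCR cycles, per the labels' protocols. The deposited files hold the raw count of reads for each distinct tag, unnormalized. Novoalign and rn4 are named, without a role, in the submitters' processing notes, and trimming and filters are not given in the sources used here. A row that names no sequence (5.13 to 7.07% of each file) was left out.

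Tags of 16 to 42 nt were matched to 693 mature rat names from RefSeq (GRCr8, 724 entries, 7 names under 18 nt not matched) by their first 18 nt. Counts were scaled to all sequence-naming reads. The size rule was 1.5-fold on RPM + 1 with 100 reads. Intervals are exact Poisson, conditional binomial (ratios) and Clopper-Pearson (shares) at 95%, and cover only counting error, as reads include PCR copies. Hairpins came from the same table (419).

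The report names the 3 miRNAs and their 3p arms, the 3 closest patterns of each and the most read tags. From the list it names members past the size rule with miR-21-5p, miR-132-3p, miR-125b-5p and miR-9a-5p. The members and lists were chosen with earlier results of these data known. The matching was first run on tags made from the reference sequences, and the size rule on simulated counts. Those counts held counting error alone, so they say nothing on the spread between libraries. Alternatives were other scalings (TMM factors from edgeR 4.0.16), pseudocounts, read minimums, a 2-fold limit, stricter and looser matching and other reference libraries. Software was R 4.3.3 and Python 3.11.15 with matplotlib 3.10.9, scipy 1.17.1, pandas 2.3.3 and numpy 2.4.6.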

Additional observations from a re-analysis of the deposited data

Results flagged for a closer look

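miR-146a-5p lay on opposite sides of the control at different times, with a ratio of 1.14 after 1 h, 0.858 after 3 h and 1.17 after 24 h. In a design of 1 library per time this difference was not tested. No scaling or matching alternative turned the sign of any of these 3 ratios.

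The 17-nt tag that both miR-146 share lies outside the reads counted for either, and stood at 5.95 times the control at 3 h and 1.95 times at 24 h. With 20 reads as the minimum, 4 of 15 tags of 17 nt and 7 of 11 of 16 nt that begin like a miRNA were 1.5-fold or more higher at 3 h, among them let-7f-5p (12 reads of 16 nt in the control and 81 at 3 h) and miR-10a-5p (15 and 64).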

How the results depend on the processing

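No paired analysis was possible because each group has 1 library. Of 16 alternatives of scaling, counting and matching, 12 could move the ratio of miR-146b-5p and 11 those of miR-146a-5p and miR-155-5p (the read minimums, the 2-fold limit and leaving out tied tags could not). Over those that could, each log2 ratio of the 3 miRNAs kept its side of 0, except miR-155-5p at 24 h (-0.06) with scaling to miRNA reads. miR-146b-5p at 24 h passed the size rule under 3 of them (TMM factors, median-of-ratios factors and the reference tag alone).

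Scaled to miRNA reads, log2 ratios were 0.046 (miR-146b-5p) and 0.010 (miR-155-5p) at 1 h, -0.34 (miR-146a-5p), 0.081 and -0.19 at 3 h, and 0.45 (miR-146b-5p) at 24 h, with 9, 14 and 44 miRNAs lower at 1 h, 3 h and 24 h. With TMM factors they were 0.23 and 0.19 (miR-146b-5p and miR-155-5p) at 1 h, 0.26 (miR-146b-5p) at 3 h, and 0.49, 0.78 and 0.28 (miR-146a-5p, miR-146b-5p, miR-155-5p) at 24 h, with 7, 12 and 15 higher and, at 24 h, 9 lower. With median-of-ratios factors they were 0.24 and 0.20 at 1 h, 0.24 (miR-146b-5p) at 3 h, and 0.47, 0.77 and 0.26 at 24 h, with 7 higher at 1 h and 11 lower at 24 h. The shift of scale sets these differences. With the reference tag alone they were 0.076 and 0.22 (miR-146b-5p and miR-155-5p) at 1 h, -0.35 (miR-146a-5p) and 0.34 (miR-146b-5p) at 3 h, and 0.94 (miR-146b-5p) and 0.18 (miR-155-5p) at 24 h, with 2 lower at 1 h and 17 at 24 h. The 17-nt tag, added after seeing the data, gave miR-146b-5p 0.24 at 3 h. Against the 1 h library the 3 stood at -0.40, 0.067 and -0.17 at 3 h and 0.043, 0.38 and -0.084 at 24 h, and against the 3 h library miR-146a-5p and miR-146b-5p stood at 0.45 and 0.32.

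Counts of other miRNAs moved with the limits. A pseudocount of 10 RPM left 1, 4 and 13 lower at 1 h, 3 h and 24 h, and none gave 11 lower at 3 h. A minimum of 20 reads gave 8 higher at 1 h and 13 higher and 11 lower at 3 h, and no minimum 13 higher at 1 h and 13 higher and 12 lower at 3 h. A 2-fold limit left 0 lower at 1 h, 2 lower at 3 h, and 3 higher and 4 lower at 24 h. Depth limits the 3p arms, with 0 to 30 reads per library.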
